A study of Danio rerio with 3 samples.

Results

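The genes described here are 9 endoplasmic reticulum (ER) stress genes of the zebrafish, *hspa5*, *hsp90b1*, *canx*, *pdia4*, *pdia6*, *edem1*, *sel1l*, *xbp1* and *ddit3*, taken by symbol from the 31950 genes of the series. Each symbol matched 1 gene, and all 9 were among the 18563 genes tested, which are those averaging 10 counts or more across libraries. The study delivered a reactive electrophile to the sensor protein Keap1 in living embryos by Z-REX: a photocaged precursor anchored to the Halo domain of an expressed Halo-TEV-Keap1 fusion releases its electrophile next to Keap1 under light. The 3 conditions were sequenced with 1 RNA-seq library each.

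The HNE Z-REX library came from embryos given the precursor of hydroxynonenal (HNE) at 1 µM, kept in the dark for 30 h, exposed to light of 365 nm at 0.5 mW per cm2 for 3 min and lysed 1.5 h later. The HDE Z-REX library came from embryos in which hydroxydodecenal (HDE), a relative of HNE with a longer alkyl chain, was delivered. The same times are given for it, whereas only for the HNE precursor is a dose given. The non-treated library is the reference for both. All embryos carried Halo-TEV-Keap1 from mRNA injected into the early embryo, on the *Tg(lyz:TagRFP)* background in which neutrophils are red, so no library shows embryos without extra Keap1. The sample labels number the Keap protein of the fusion differently in each library, while the protocol names Keap1 for all. The sources used here do not state which steps of the procedure the non-treated embryos went through, so the electrophile cannot be told apart from the precursor, the light and the handling. RNA was from whole embryos, and fewer cells of a type and less RNA per cell cannot be told apart.

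The ER folds secreted and membrane proteins, and unfolded protein accumulating in it is sensed by the membrane proteins Ire1, Perk and Atf6. Ire1 splices the *xbp1* transcript, Atf6 is cut to release a transcription factor, and Perk slows translation while favouring that of Atf4, which drives *ddit3*. Chaperones and degradation factors of the ER are the classical targets of Xbp1 and Atf6. In the early fish embryo, the notochord and hatching gland are secretory tissues in which these genes are active.

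The ER chaperone genes *hspa5* and *hsp90b1* fell in both Z-REX libraries, and both were lower after HDE than after HNE. With counts scaled by the trimmed mean of M-values (TMM), *hspa5* and *hsp90b1* were 0.630 and 0.578 times their non-treated level after HDE and 0.831 and 0.784 times that level after HNE. Of the signalling genes, *xbp1* rose after HNE, at 1.07 times its non-treated level, and fell after HDE, at 0.864 times. Among genes averaging 500 counts or more, 14.2% rose after HNE and 26.4% fell after HDE. The counts of *ddit3* were within counting error of non-treated in both Z-REX libraries. None of the 9 genes reached a 1.5-fold rise in either Z-REX library. Each condition rests on 1 library, so no difference could be set against a spread between replicates. The intervals given are exact 95% Clopper-Pearson intervals that cover counting error only, and the exact binomial test used compares libraries, not conditions.

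**Figure D1:**
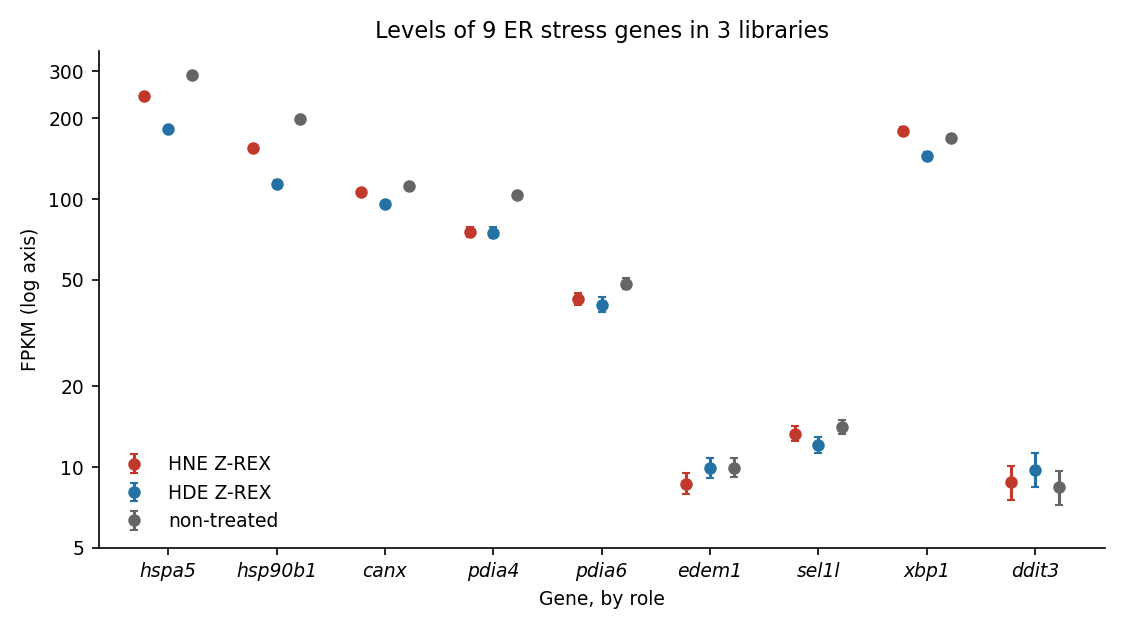
Level of each ER stress gene in FPKM (reads per gene corrected for transcript length and library size, log axis) in the HNE Z-REX, HDE Z-REX and non-treated libraries, 1 library each. Bars are 95% counting intervals. *hspa5* lies highest in all 3 libraries, at 242, 183 and 292 FPKM, while *edem1* and *ddit3* lie lowest.

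Levels between genes were compared in FPKM, which corrects for transcript length. *hspa5*, encoding BiP, the Hsp70 chaperone of the ER that also holds the stress sensors inactive, was the most abundant of the 9 in every library. Summed over the 9 genes, the level was 831.5 FPKM after HNE, 685 FPKM after HDE and 955.4 FPKM in non-treated embryos. *hsp90b1*, encoding the ER Hsp90 Grp94, had 155 FPKM after HNE, 114 FPKM after HDE and 199 FPKM in non-treated embryos. *xbp1* had 180, 145 and 169 FPKM in the same libraries, so it stood above *hsp90b1* after HNE and after HDE and below it in non-treated embryos. *canx* (106, 95.8 and 112 FPKM), *pdia4* (75.5, 75.0 and 103 FPKM), *pdia6* (42.5, 40.4 and 48.4 FPKM) and *sel1l* (13.3, 12.1 and 14.1 FPKM) followed in that order in all 3 libraries. *edem1* (8.69, 9.93 and 9.95 FPKM) and *ddit3* (8.78, 9.78 and 8.40 FPKM) had overlapping counting intervals in each library, so their order was not resolved.

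The library totals were 17704410 counts for HNE, 15084294 for HDE and 17996111 for non-treated embryos. Over all genes tested, the median log2 ratio to non-treated was 0.0037 after HNE and 0.0072 after HDE, and between HNE and HDE it was -0.0008. A gene was called at an adjusted p under 0.05 in the binomial test together with a ratio of at least 1.5-fold. The verbs rose and fell are used of an adjusted p under 0.05 at any fold, since well counted genes reach it at small ratios.

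After HNE, 0 of the 9 genes were called, against 1.75% of all genes called higher and 1.62% called lower. At any fold, 1 rose and 4 fell, against 7.25% of all genes that rose and 7.46% that fell. The median log2 ratio of the 9 was -0.13. After HDE, 0 of the 9 were called higher and 2, *hspa5* and *hsp90b1*, were called lower, against 2.77% and 1.49% of all genes. At any fold, 0 rose and 7 fell, against 9.97% and 11.1% of all genes, and the median log2 ratio of the 9 was -0.21. For HNE against HDE, 0 of the 9 were called, against 1.21% of all genes called higher and 2.3% called lower, and at any fold 6 were higher and 0 lower, against 9.22% and 7.44%. Both comparisons with non-treated embryos share that library, so their values stand side by side and are not independent of each other.

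The 9 genes are counted better than most, which raises the share that passes at any fold. Among the 5351 genes averaging 500 counts or more, which hold 8 of the 9, 15.6% fell after HNE and 26.4% fell after HDE, and 0.953% were called lower after HDE. After HNE, 14.2% of these genes rose, and 1 of the 8, *xbp1*, did so, which lies near that share. For HNE against HDE, 22.5% of these genes were higher. This second background was chosen after seeing the data.

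**Figure D2:**
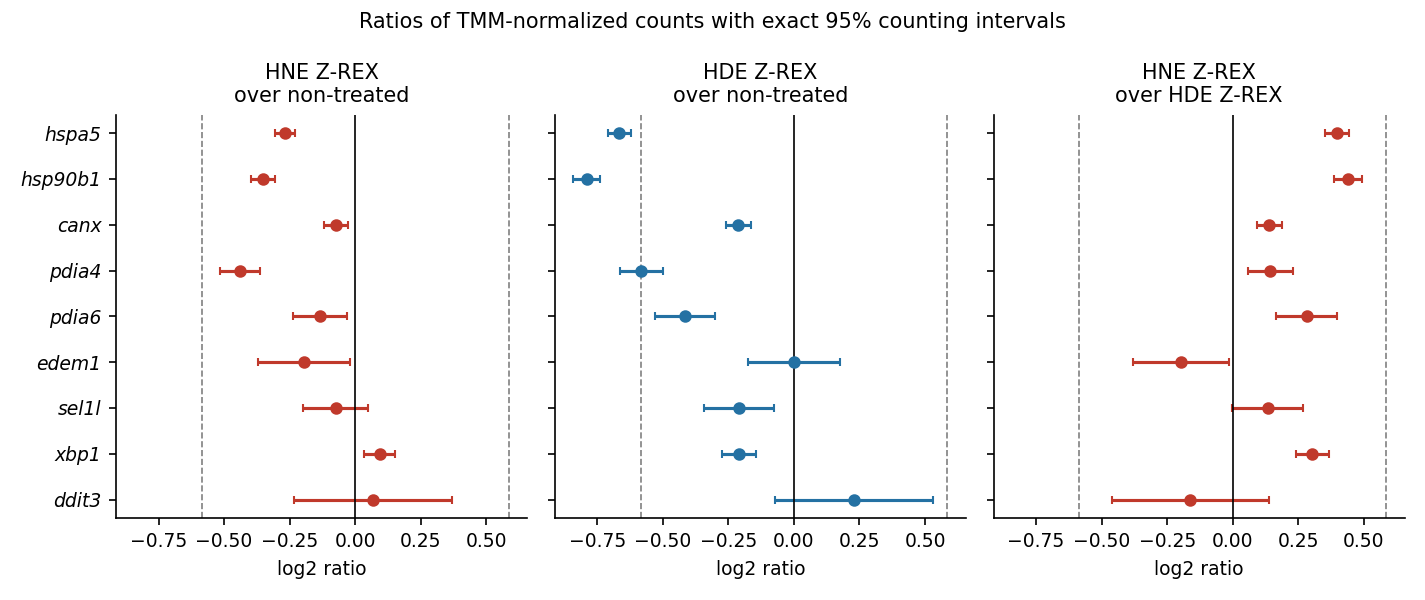
Log2 ratio of TMM-normalized counts for the 9 genes, with panels for HNE over non-treated, HDE over non-treated and HNE over HDE, and with exact 95% counting intervals. Dashed lines mark 1.5-fold. In HDE against non-treated, *hspa5* (-0.67) and *hsp90b1* (-0.79) lie beyond the dashed line, and *ddit3* (0.23) and *edem1* (0.00) lie at or above 0.

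*hspa5* had 9394 counts after HNE, 6309 after HDE and 11420 in non-treated embryos. It fell in both Z-REX libraries, with ratios of 0.831 (0.808 to 0.854) after HNE and 0.630 (0.611 to 0.650) after HDE, at adjusted p of 1.6e-38 and 1.7e-194 in the exact binomial test. The HNE library was 1.32 times the HDE library (1.28 to 1.36). Of all genes tested, 3.04% had a lower ratio than *hspa5* after HDE.

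*hsp90b1* had 7233 counts after HNE, 4721 after HDE and 9313 in non-treated embryos. Its ratio was 0.784 (0.760 to 0.809) after HNE and 0.578 (0.558 to 0.599) after HDE, at adjusted p of 2.1e-52 and 1.3e-213 in the exact binomial test. This was the lowest HDE ratio among the 9 genes, and 2.01% of all genes lay below it. HNE was 1.36 times HDE (1.31 to 1.41), also the largest difference between the electrophiles in the set. *canx* encodes calnexin, the membrane lectin that holds newly made glycoproteins. It had 7741 counts after HNE, 6219 after HDE and 8218 in non-treated embryos, and its ratios of 0.951 (0.922 to 0.981) and 0.863 (0.835 to 0.892) were nearer to 1 than those of the soluble chaperones.

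The disulfide isomerases differed from each other. *pdia4*, an isomerase of the BiP chaperone complex, had 2408 counts after HNE, 1929 after HDE and 3296 in non-treated embryos. Its ratio was 0.738 (0.700 to 0.778) after HNE, the lowest of the 9 in that comparison, and 0.668 (0.631 to 0.707) after HDE, just short of the 1.5-fold limit. *pdia6*, an isomerase that also acts on the sensors Ire1 and Perk, had 1433 counts after HNE, 1043 after HDE and 1588 in non-treated embryos. It fell after HDE, with a ratio of 0.749 (0.692 to 0.811), and did not pass the test after HNE, with a ratio of 0.911 (0.848 to 0.979) and an adjusted p of 0.0664 in the exact binomial test. For both genes the counts and the FPKM gave different values where the HDE library was involved. Over non-treated, the FPKM ratio after HDE was 0.728 for *pdia4* and 0.836 for *pdia6*, both above the intervals from the counts. HNE was 1.105 times HDE for *pdia4* and 1.22 times for *pdia6* in counts, whereas the FPKM ratios were 1.01 and 1.05.

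The degradation genes stayed nearer to non-treated than *hspa5* and *hsp90b1*. *edem1*, a lectin that extracts misfolded glycoproteins from the folding cycle, had 495 counts after HNE, 502 after HDE and 572 in non-treated embryos, and passed the test in none of the 3 comparisons. Its ratios were 0.874 (0.773 to 0.987) after HNE and 1.00 (0.886 to 1.13) after HDE. *sel1l*, the adaptor of the Hrd1 ubiquitin ligase, had 1008 counts after HNE, 813 after HDE and 1072 in non-treated embryos. It fell after HDE, at 0.865 (0.789 to 0.949) with an adjusted p of 0.0124 in the exact binomial test. With library totals in place of TMM the adjusted p was 0.110, so whether it passed the test depends on the scaling. After HNE its ratio was 0.949 (0.870 to 1.04).

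*xbp1* was the only one of the 9 genes on opposite sides of non-treated past the test. It had 4794 counts after HNE, 3437 after HDE and 4536 in non-treated embryos. It rose after HNE, at 1.07 (1.02 to 1.11) with an adjusted p of 0.0165, and fell after HDE, at 0.864 (0.827 to 0.904) with an adjusted p of 3.1e-09, both in the exact binomial test. The HNE level was 1.23 times the HDE level (1.18 to 1.29). These are counts over the whole gene and do not show the spliced form that encodes the active factor.

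*ddit3* encodes Chop, the transcription factor that promotes apoptosis under prolonged stress. It had 189 counts after HNE, 187 after HDE and 182 in non-treated embryos, and passed the test in none of the 3 comparisons. The ratios were 1.05 (0.851 to 1.29) after HNE and 1.17 (0.951 to 1.45) after HDE, so a rise above 1.29-fold after HNE and above 1.45-fold after HDE lay outside the counting error. The HNE level was 0.894 times the HDE level (0.727 to 1.101).

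HNE and HDE, the 1 pair of electrophiles, were compared at matched times with adjustment over all 18563 genes. The difference passed the exact binomial test for 6 genes, all higher after HNE: *hsp90b1*, *hspa5*, *xbp1*, *pdia6*, *pdia4* and *canx*. The smallest was *canx* at 1.102 (1.06 to 1.14), and *pdia4*, at 1.105 (1.04 to 1.17), did not pass with library totals, where its adjusted p was 0.164. In FPKM the ratios of *pdia4* and *pdia6* were 1.01 and 1.05, so the size of these differences depends on the measure. For *sel1l* the ratio was 1.097 (0.999 to 1.21), and for *edem1* it was 0.873 (0.769 to 0.990) with an adjusted p of 0.141 in the exact binomial test. These intervals leave room for HNE levels up to 1.21 times the HDE level for *sel1l* and down to 0.769 times for *edem1*. Across libraries, 7 of the 9 genes had their lowest count level after HDE, and 6 were below non-treated in both Z-REX libraries. Both counts go by direction alone and include differences that did not pass the test. These were *sel1l* in HNE against HDE, and *pdia6* and *sel1l* in HNE against non-treated. The shares of all genes with these patterns were not counted, so whether the 9 genes stand out in them was not tested. Both Z-REX ratios use the same non-treated library, so the second count does not rest on independent comparisons.

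If libraries of the same condition varied by 10%, a biological coefficient of variation of 0.1 that these data cannot estimate, edgeR's exact test kept 1 of the 9 genes. This was *hsp90b1* in HDE against non-treated, at an adjusted p of 0.0231, whereas *hspa5* had 0.112 and *pdia4* 0.293. At 0.2 the count was 0 in each comparison. Of the 18563 genes tested, 149 were called at 0.1 in HNE against non-treated, 131 in HDE against non-treated and 106 in HNE against HDE. At 0.2 the counts over all genes were 34, 16 and 19. With so few genes called among all, a count of 0 does not set the 9 genes apart.

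**Figure D3:**
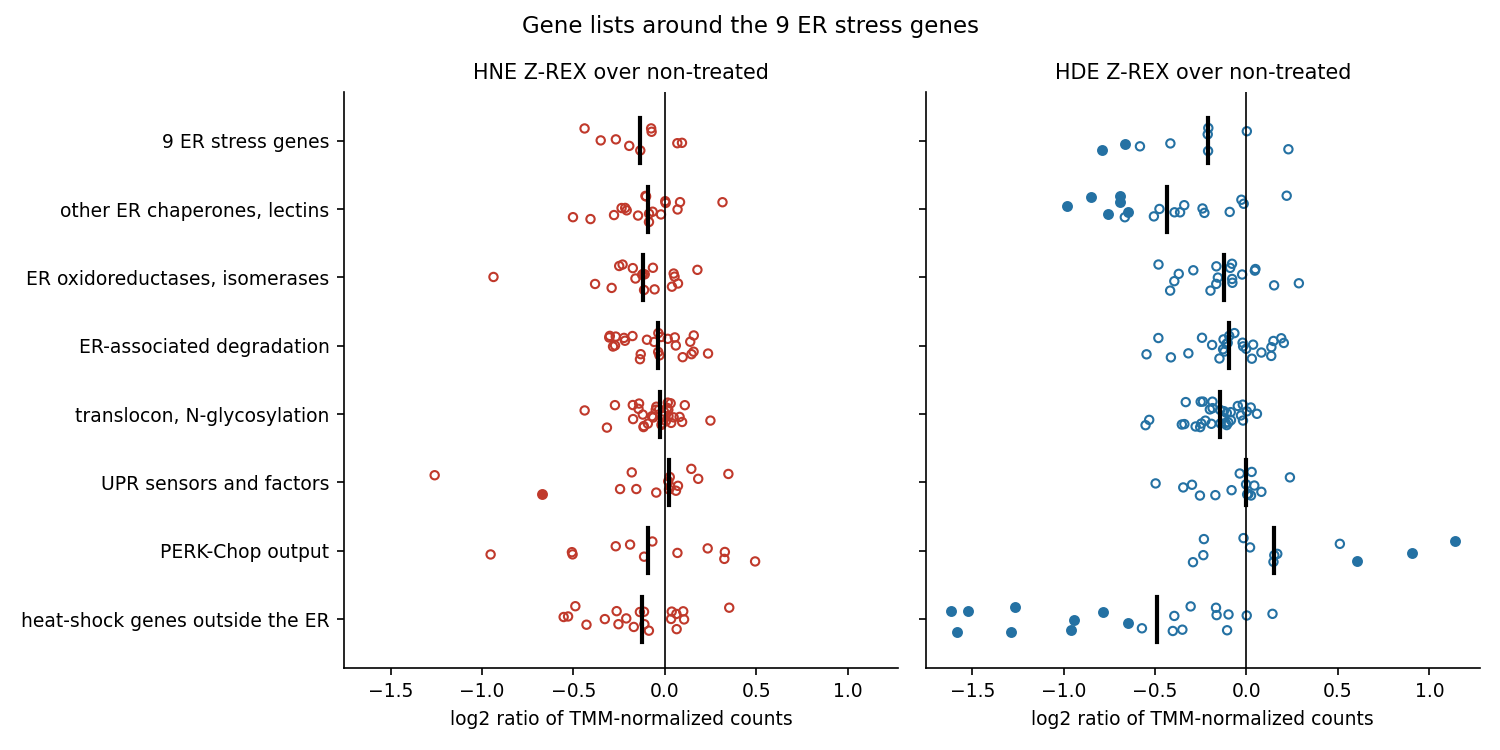
Log2 ratio of TMM-normalized counts of each tested gene, by list, over non-treated, for HNE and for HDE. Filled points are called at 1.5-fold and an adjusted p under 0.05, and black bars are list medians. In HDE against non-treated the other ER chaperones have a median of -0.43 and the heat-shock genes outside the ER one of -0.49, while the sensors lie around 0.

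Of 18 other ER chaperones and lectins tested, 6 were called lower after HDE and 0 higher, against 1.49% and 2.77% of all genes. After HNE, 0 of the 18 were called and 5 fell at any fold. The any-fold share was 7.46% of all genes and 15.6% of those averaging 500 counts or more. The 5 were *dnajc3a*, *creld2*, *manf*, *hyou1* and *calr3a*, at ratios of 0.706, 0.754, 0.825, 0.849 and 0.860 after HNE. In contrast, *calr3b*, *dnajb9b* and *dnajc10* had ratios of 1.00, 1.00 and 1.05. *calr3b*, a calreticulin, and *dnajc10*, an ER reductase, were chosen after their values were seen. The medians were -0.43 after HDE and -0.09 after HNE, against 0.0072 and 0.0037 over all genes. The 6 called lower after HDE included *hyou1*, a nucleotide exchange factor and chaperone beside BiP, and the BiP cochaperones *dnajb11*, *dnajb9b* and *dnajc3a*. The others were the secreted stress proteins *manf* and *creld2*. *hyou1* had 2145 counts after HNE, 1430 after HDE and 2552 in non-treated embryos, a ratio of 0.639 (0.599 to 0.682) after HDE and 0.849 (0.801 to 0.899) after HNE. *dnajb11* had 1279 counts after HNE, 745 after HDE and 1371 in non-treated embryos, and was called in HNE against HDE at 1.52 (1.39 to 1.67). *dnajb9b* was also called there, with 123 counts after HNE, 55 after HDE and 124 in non-treated embryos. A second entry named *dnajb9b* had 2, 3 and 1 counts in these libraries and was not tested. *calr3a*, a calreticulin and among the most abundant of the list, had 4198 counts after HNE, 3104 after HDE and 4926 in non-treated embryos, with a ratio of 0.719 (0.687 to 0.752) after HDE.

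Among 12123 genes averaging 100 counts or more, 5 were named whose pair of log2 ratios lay nearest to that of *hspa5* over the 3 libraries. By distance they were *si:dkeyp-55f12.3* (0.0186), *cmc2* (0.0212), *manf* (0.0288), *hyou1* (0.0372) and *nedd8l* (0.0374). Both ratios share the non-treated library. Counting intervals were wider than these distances, with HDE log2 ratios spanning -0.86 to -0.53 for *manf* and -0.74 to -0.55 for *hyou1*. Which genes lie nearest is therefore not resolved.

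After HDE, the medians of the other folding and degradation lists lay nearer to 0. Of all genes, 1.75% were called higher and 1.62% lower after HNE, and 2.77% and 1.49% after HDE. Of 18 other ER oxidoreductases and isomerases, 0 were called against non-treated in either comparison, with medians of -0.12 after HNE and after HDE. At any fold 9 of them fell after HDE, against 11.1% of all genes and 26.4% of those averaging 500 counts or more. Among the 9 was *pdia3*, the glycoprotein isomerase that works with calnexin. It had 3327 counts after HDE against 4907 in non-treated embryos, a ratio of 0.774 (0.740 to 0.809). *ppib*, the ER cyclophilin, had a ratio of 0.940 (0.912 to 0.969). *ero1l*, an oxidase that recharges the isomerases, was called lower in HNE against HDE with 15 counts after HNE, 31 after HDE and 29 in non-treated embryos. Of 25 ER-associated degradation genes, 0 were called in any comparison. In HNE against HDE, 1.21% of all genes were called higher and 2.3% lower. In lists of these sizes, 0 called lies near the shares of all genes and does not set the lists apart. *vcp*, the ATPase that pulls substrates from the membrane, had 11036 counts after HNE, 9842 after HDE and 11373 in non-treated embryos, and its ratio of 0.987 after HDE had an interval of 0.961 to 1.01. *derl1*, a membrane channel component, had a ratio of 0.999 (0.914 to 1.09) after HDE. Of 32 translocon, signal peptidase and glycosylation genes, 0 were called, which is also near the shares of all genes. At any fold, 8 of the 32 fell after HNE and 18 fell after HDE. The any-fold shares were 7.46% and 11.1% of all genes, and 15.6% and 26.4% of those averaging 500 counts or more. *sec61b*, a subunit of the translocation channel, had 2264 counts after HNE, 1702 after HDE and 2847 in non-treated embryos, with a ratio of 0.682 (0.642 to 0.725) after HDE, and the subunit *sec61g* had 0.790 (0.746 to 0.837).

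Of 15 sensors and transcription factors of the unfolded protein response, 1 was called lower after HNE and 0 after HDE, against 1.62% and 1.49% of all genes, and the medians were 0.02 and -0.0023. The second of these changed sign with the scaling. The called gene was *creb3l3a*, a membrane-bound factor of liver and intestine, with 59 counts after HNE, 59 after HDE and 95 in non-treated embryos. *atf4a*, which encodes the factor favoured when Perk is active, had 5967 counts after HNE, 4912 after HDE and 5930 in non-treated embryos. Its ratios were 1.02 (0.980 to 1.05) after HNE and 0.945 (0.910 to 0.982) after HDE, where it fell. *atf4b*, the other Atf4 gene, was chosen after its values were seen. It had 5619 counts after HNE, 3996 after HDE and 5439 in non-treated embryos. It fell after HDE, at 0.838 (0.8045 to 0.873), and did not pass the test after HNE, at 1.043 (1.005 to 1.083). *nfyba*, a subunit of the factor that binds beside Atf6, had 1.105 (1.04 to 1.18) after HNE and 1.01 (0.942 to 1.08) after HDE. The genes of the sensors themselves were chosen after their values were seen. *ern1*, encoding Ire1, rose after both, at 1.27 (1.14 to 1.42) after HNE and 1.18 (1.05 to 1.32) after HDE. *atf6* rose after HNE, at 1.13 (1.04 to 1.23), and had a ratio of 0.998 (0.913 to 1.09) after HDE. *eif2ak3*, encoding Perk, had 1.02 (0.904 to 1.15) after HNE and 1.02 (0.899 to 1.15) after HDE. *ern2*, the other Ire1 gene, had 12 counts after HNE, 20 after HDE and 29 in non-treated embryos. Its ratios of 0.418 (0.194 to 0.844) and 0.787 (0.422 to 1.44) did not pass the test. A further sensor gene, *ATF6B*, had 0 counts in every library and was not tested.

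**Figure D4:**
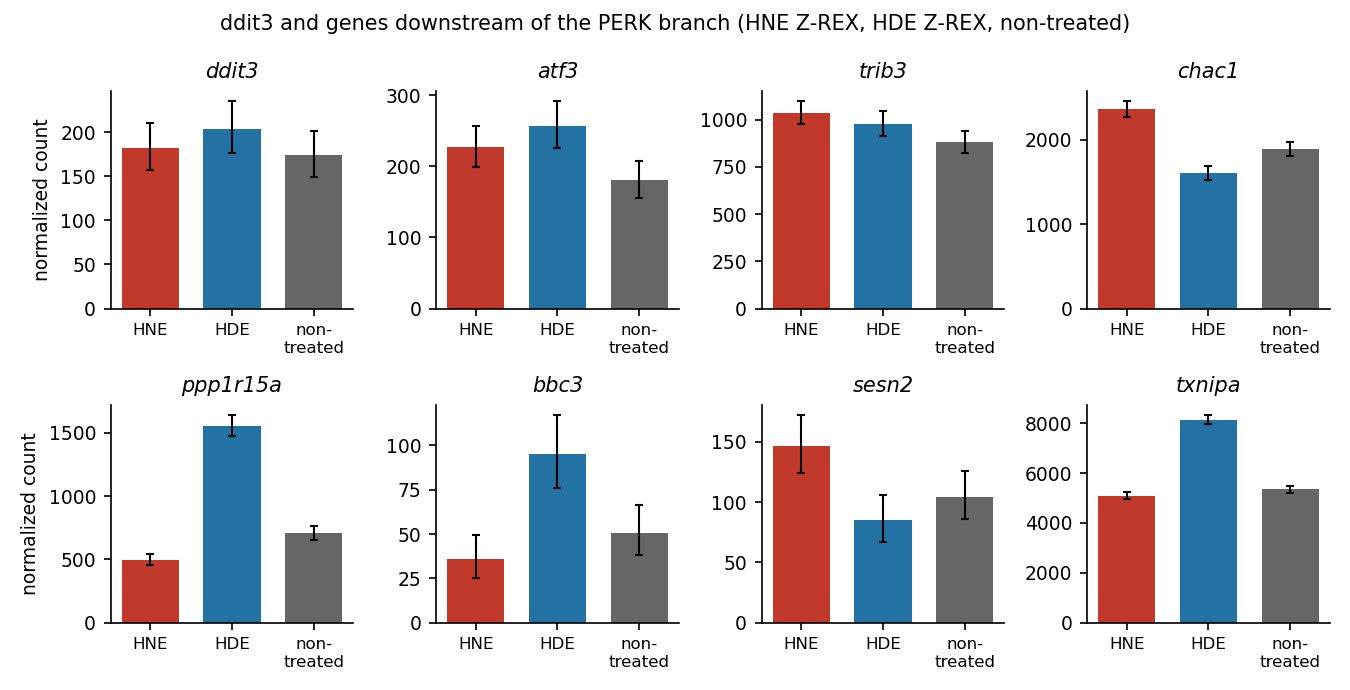
TMM-normalized counts (y axis, from 0) of *ddit3* and 7 genes downstream of Perk or Chop in the HNE Z-REX, HDE Z-REX and non-treated libraries, with 95% counting intervals. The intervals of *ddit3* overlap across the libraries, *ppp1r15a*, *bbc3* and *txnipa* are highest after HDE, and *chac1* and *sesn2* are highest after HNE.

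Some genes downstream of Perk and Chop differed between the electrophiles, in both directions. Of 12 tested, 3 were called higher after HDE and 0 lower, against 2.77% and 1.49% of all genes. After HNE, 0 were called, against 1.75% of all genes called higher and 1.62% lower. At any fold, 4 rose and 1 fell after HDE, against 9.97% and 11.1% of all genes. After HNE, 3 rose and 1 fell at any fold, against 7.25% and 7.46%. For HNE against HDE, 1 was called higher and 3 lower, against 1.21% and 2.3% of all genes. In that comparison 2 were higher and 4 lower at any fold, against 9.22% and 7.44% of all genes, and 6 did not pass the test. *ppp1r15a*, encoding the phosphatase subunit that restores translation, had 516 counts after HNE, 1429 after HDE and 741 in non-treated embryos. It was 2.2 times its non-treated level after HDE (2.01 to 2.41) and 0.703 times after HNE (0.627 to 0.788), both past the test. *bbc3*, encoding the apoptosis promoter Puma, had 37 counts after HNE, 87 after HDE and 53 in non-treated embryos, and *txnipa*, which binds thioredoxin, had 5286, 7461 and 5596. The opposite order was seen for *chac1*, a glutathione-degrading enzyme, with 2451 counts after HNE, 1473 after HDE and 1975 in non-treated embryos. It rose after HNE, at 1.25 (1.18 to 1.33), and fell after HDE, at 0.851 (0.795 to 0.911), while *sesn2*, a stress-induced regulator of growth, was called higher in HNE against HDE at 1.73 (1.304 to 2.296). Against non-treated, *sesn2* rose after HNE, at 1.41, and did not pass the test after HDE, at 0.816 (0.6025 to 1.102). *atf3* and *trib3* were added to the plot after their values were seen, and *atf3*, a stress-induced factor, had 235 counts after HNE, 236 after HDE and 189 in non-treated embryos. *atf3* rose after HDE, at 1.425 (1.172 to 1.734), and did not pass the test after HNE, at 1.255 (1.032 to 1.528). *trib3* rose after HNE, at 1.18 (1.08 to 1.29), and did not pass the test after HDE, at 1.11 (1.01 to 1.22). Members of this list also respond to signals other than ER stress.

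A list of heat-shock genes outside the ER held cytosolic chaperones and their partners together with *hspd1* and *hspe1*, which encode mitochondrial chaperones. Of 20 tested, 9 were called lower after HDE and 0 higher, against 1.49% and 2.77% of all genes, with a median of -0.49. At any fold 15 fell after HDE, against 11.1% of all genes and 26.4% of those averaging 500 counts or more. The 5 that did not pass the test, named for that reason, were *hspa4b*, *hspb1*, *hsc70*, *bag3* and *hsph1*. After HNE, 0 were called, with a median of -0.13, against 1.75% of all genes called higher and 1.62% called lower. At any fold 7 fell and 2 rose after HNE, against 7.46% and 7.25% of all genes. Among genes averaging 500 counts or more, these shares were 15.6% and 14.2%. For HNE against HDE, 7 were called higher, against 1.21% of all genes, with a median of 0.43. *hsp90aa1.2*, a cytosolic Hsp90, had 4332 counts after HNE, 1928 after HDE and 6312 in non-treated embryos, a ratio of 0.349 (0.331 to 0.367) after HDE. *hsp70.3*, an inducible Hsp70, had 455, 148 and 505 counts in these libraries, and *ahsa1a*, an activator of Hsp90, had 177, 40 and 140. *hsp70l*, another inducible Hsp70, had 184, 75 and 209 counts, and the Hsp40 partners were at 216, 132 and 236 counts for *dnajb1a* and at 1158, 641 and 1087 counts for *dnajb1b*. The abundant *hspa8*, a constitutive Hsp70, was 0.893 times its non-treated level after HDE (0.884 to 0.901) and 1.07 times after HNE (1.06 to 1.08), and *hsp90ab1*, a constitutive Hsp90, had ratios of 0.891 (0.881 to 0.900) and 1.04 (1.03 to 1.06).

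Markers of other tissues also differed between libraries, and their part in the values above was not tested. Markers of the hatching gland, all 8 above 0, summed to 2713 FPKM after HNE, 2720 FPKM after HDE and 3071 FPKM in non-treated embryos. Those of the notochord, all 10 above 0, summed to 934.8, 895.4 and 870.3 FPKM. Neither sum followed the order of *hspa5* and *hsp90b1*, in which the level after HDE was below that after HNE and both were below non-treated. The hatching gland sum was mostly *he1a* and *he1b*, at 1432 and 655.3 FPKM after HNE. By counts, 3 of the 8 hatching gland markers were higher after HNE than after HDE and 5 were lower. Among the 3 was *he2*, named after its values were seen, with 34 counts after HNE, 20 after HDE and 100 in non-treated embryos. Its difference between HNE and HDE did not pass the test. Markers of yolk syncytial layer and liver summed to 12410 FPKM after HNE, 11270 FPKM after HDE and 15400 FPKM in non-treated embryos. Those of skeletal muscle summed to 23200, 21210 and 25520 FPKM in these libraries, and both sums followed the order of *hspa5* and *hsp90b1*. Not every marker did so by counts. Of 9 muscle markers tested, 7 were higher after HNE than after HDE and 2 were lower. Of 11 yolk and liver markers tested, 8 were higher and 3 lower, and 2 of the 11 were above non-treated after HNE. Neuronal markers followed it as a sum, at 642.4, 628.9 and 674.8 FPKM, but not gene by gene. Of the 7 tested by counts, 3 were higher after HNE and 4 were higher after HDE. The median log2 ratio of HNE to HDE was -0.0051. *tubb5* had 248.4, 216.5 and 262 FPKM, whereas *elavl3* had 116.6, 135.5 and 123.9 FPKM. Primitive red cell markers summed to 4515 FPKM after HNE, 4783 FPKM after HDE and 6864 FPKM in non-treated embryos. Leukocyte markers were at 61.45 FPKM after HNE, 111.9 FPKM after HDE and 124.8 FPKM in non-treated embryos. The neuronal marker *gap43* was at 0 in all 3 libraries, and the liver marker *fabp10a* was at 0 in the HDE and non-treated libraries.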

How the data were processed

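Whole-embryo polyadenylated RNA was sequenced from stranded libraries, 1 per condition. The authors trimmed reads with cutadapt 1.8, mapped them to GRCz10 with TopHat2 2.1 and used Cufflinks 2.2 to obtain the deposited FPKM values. The deposited counts are expected counts, not whole for 939 of 31950 genes (2.94%) and for 0 of the 9 genes, and were rounded. The counting tool is not given in the sources used here. Fold changes and p-values of the study's own comparisons were not used.

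Counts were scaled by TMM (edgeR 4.0.16, R 4.3.3). Each of the 18563 genes averaging 10 counts or more was tested in 3 comparisons with an exact two-sided conditional binomial test on effective library sizes (scipy 1.17.1) and Benjamini-Hochberg adjustment. Intervals are exact 95% Clopper-Pearson intervals. With 1 library per condition, no p-value measures variation between embryos, and differing reads per sample (15084294 to 17996111) set only the counting precision. The 9 genes and 15 further lists were chosen with earlier results of these data known. Named genes are the 9, list members called in a comparison (at most the 3 largest rises and 3 largest falls of a list) and the 2 most abundant of each pathway list, with exceptions named in the text. Marker lists are given as sums, with genes at 0 named. In simulated data for HNE against non-treated, 18578 genes were tested, 188 of 200 changed genes and 3 unchanged genes were called, and 95.6% of intervals held the true ratio. The simulated libraries varied by counting error only, and the changed genes were taken from the better counted ones. These figures therefore check the computation and do not show how many calls would hold between replicates. Gene names are those of the files, and the symbols of all 9 matched the gene name table by ID. No sequences or positions are given, since no genome of the build was used here.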

Additional observations from a re-analysis of the deposited data

How the results depend on the processing

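Alternatives were DESeq2 1.42.0 size factors, library totals, no low-count filter, a filter at 50 mean counts, edgeR's exact test at an assumed coefficient of variation of 0.1 or 0.2, and FPKM with a pseudocount of 0.1 or 1. No paired analysis was possible because each condition has 1 library, and for the same reason no replicate could be left out. The coefficient of variation mattered most. Of all genes, 624 were called in HNE against non-treated, 791 in HDE against non-treated and 651 in HNE against HDE. At 0.1 the counts were 149, 131 and 106, and at 0.2 they were 34, 16 and 19. Of the 9 ER stress genes in HDE against non-treated, 2 were called by the binomial test, 1 at 0.1, 0 at 0.2 and 3 with DESeq2 size factors, which added *pdia4*. Counting all genes at 1.5-fold in FPKM with a pseudocount of 0.1, which has no test, gave 1719, 1923 and 1742 genes. The log2 ratio of *edem1* in HDE against non-treated was -0.0059 with DESeq2 size factors and 0.0018 with TMM. With library totals, which shifted log2 ratios by at most 0.064, *edem1* passed in HNE against HDE at an adjusted p of 0.0390 in the exact binomial test, and *sel1l* and *pdia4* no longer passed as described. Without a low-count filter the counts over all genes were 611, 763 and 639, and with the filter at 50 mean counts 466, 583 and 492. Under both, each of the 27 ratios of the 9 genes kept its direction and its side of an adjusted p of 0.05. In FPKM the HDE to non-treated log2 ratio was -0.46 for *pdia4* and -0.26 for *pdia6* with a pseudocount of 0.1. Depth limits *ddit3* most, whose intervals span a ratio of 0.851 to 1.29 after HNE.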

Other observations

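Genes of serine synthesis and other Atf4 targets were mostly higher after HNE than after HDE. Of 13 tested, 8 were higher and 1 was lower at an adjusted p under 0.05 in the exact binomial test, against 9.22% and 7.44% of all genes. Among genes averaging 500 counts or more, these shares were 22.5% and 12%. Against non-treated, 0 were called after HNE, against 1.75% of all genes called higher and 1.62% called lower, with a median log2 ratio of 0.20. After HDE, 1 was called higher and 0 lower, against 2.77% and 1.49% of all genes, with a median of -0.12. At any fold, 7 rose and 1 fell after HNE, against 7.25% and 7.46% of all genes. After HDE, 1 rose and 5 fell at any fold, against 9.97% and 11.1%. Among genes averaging 500 counts or more, 14.2% rose after HNE and 26.4% fell after HDE. At 1.5-fold, for which the shares of all genes were 1.21% higher and 2.3% lower, 2 were called higher after HNE than after HDE and 1 lower, and the median log2 ratio was 0.23, against -0.0008 over all genes. *asns*, encoding asparagine synthetase, had 1353 counts after HNE, 796 after HDE and 1141 in non-treated embryos, and *mthfd2*, a mitochondrial folate enzyme, had 1168, 599 and 919. *psat1*, a serine synthesis enzyme, had 2418 counts after HNE, 1545 after HDE and 2122 in non-treated embryos, with ratios of 1.15 (1.08 to 1.22) and 0.831 (0.777 to 0.887). *sars*, the seryl-tRNA synthetase, had ratios of 1.00 (0.954 to 1.05) and 0.842 (0.799 to 0.887). *ddit4*, an inhibitor of growth signalling, was the exception, with 1003 counts after HNE, 2029 after HDE and 1378 in non-treated embryos, a ratio of 1.68 (1.57 to 1.8) after HDE and 0.735 (0.677 to 0.798) after HNE.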
